A study of Mus musculus with 47 samples.

Results

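Wild-type mouse lung at E18.5, embryonic days after conception, was compared with the liver and brain of wild-type embryos to find the genes that set the lung apart at the saccular stage of its development. The 7 lungs, 8 livers and 8 brains labelled wild type were taken, or 23 of 47 RNA-seq libraries. Another wild-type lung, of the Y130A litters, was left out by the study as an outlier by principal components and a heatmap and is not analysed here, so that the lungs had been selected on expression. The embryos were of the C57BL/6 strain, received no treatment, and carried no mutant allele of Daxx, the histone chaperone gene that the study had altered. They were littermates of embryos homozygous for S226A (4 lungs, 4 livers and 4 brains, called here the S226A litters) or for Y130A (3 lungs, 4 livers and 4 brains, the Y130A litters), from intercrossed heterozygotes of lines that were made by editing C57BL/6N zygotes and backcrossed to C57BL/6J. The libraries came from 9 wild-type embryos of 8 litters, and 6 of these embryos gave all 3 tissues. Replicate numbers do not mark the embryo throughout, and in the Y130A litters lung replicates 1, 2 and 3 came from the embryos of liver replicates 4, 1 and 2. Homogenized tissue was sequenced, so that a lung library holds all cell types of the tissue taken and whatever adjoining tissue came with it. The study does not say whether whole organs were used. In such bulk samples, fewer cells of a type and less RNA per cell cannot be told apart.

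The lung at the end of gestation is a branched tree of epithelium embedded in mesenchyme. At the saccular stage its tips widen into thin-walled sacs, where cuboidal type 2 cells make surfactant, the film of lipid and protein that keeps the sacs open after birth, and flat type 1 cells form the surface for gas exchange. The conducting airways hold secretory, basal, neuroendocrine and ciliated cells. The mesenchyme supplies growth factors, elastic fibres and smooth muscle, and a dense capillary bed comes to lie against the epithelium.

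Depth differed between the litters. The lungs held 15722147 to 42222108 counted reads, the livers 17462973 to 54885020 and the brains 20364649 to 53050330, and every library of the Y130A litters was deeper than every library of the S226A litters. Levels are given as CPM (counts scaled to 1000000 per library after TMM), as the lowest, median and highest library of a tissue. A gene was called in a contrast when edgeR's quasi-likelihood test, with the set of litters as a term, gave an adjusted p below 0.01, a standard error (SE) below 1 and a log2 fold change larger than 1 up or down. A gene was taken to set the lung apart when it was called in the same direction against liver, against brain and against the mean of both. These contrasts share the lung libraries. Where an adjusted p is given, it is for the contrast with the mean, and so is a log2 fold change given with no tissue named. The liver of replicate 2 of the S226A litters stood apart. It held 544 CPM of Krt4 and 413 CPM of Krt13, keratins of squamous epithelium, where the other 7 livers reached at most 4.26 and 4.10 CPM. It is called the squamous liver library here.

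Of 16036 genes tested, 1766 were set apart as higher in lung, which is 11.0% of the genes tested, and 628 as lower, which is 3.92%. In 1653 of the higher genes all 7 lungs lay above all 16 other libraries, against 2186 of all genes tested (13.6%). In 497 of the lower genes all lungs lay below all other libraries, against 1155 of all genes tested (7.20%). The contrast with the mean alone called 3369 genes higher (21.0%) and 2422 lower (15.1%), among them genes that lung shared with 1 of the other tissues. Lung was higher than liver in 3970 genes (24.8%) and lower in 3125 (19.5%), and it was higher than brain in 4278 (26.7%) and lower in 3732 (23.3%). Among these, 1170 genes were higher than in liver but lower than in brain, and 1101 were lower than in liver but higher than in brain. The shares of all genes given here are those to set beside the counts of list members that follow. When libraries were scaled by their total alone, the median log2 fold change of all genes moved from -0.05 to 0.28. The genes set apart became 2227 higher and 432 lower, so that higher calls made up 83.8% of them in place of 73.8%, and all 1766 genes called higher with TMM were among the 2227. In the contrast with the mean, the share of higher calls went from 58.2% to 69.9%.

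The 15 genes with the largest fitted differences, among those without overlap between lung and the other tissues, were Sftpc, Cxcl15, Scgb3a2, Scgb1a1, Tmem213, Retnla, Sftpb, Cldn18, Reg3g, Muc5b, Lamp3, Slc34a2, Sfta2, Sec14l3 and Sftpa1. Of these, 6 are on the type 2 list used here, 1 on the type 1 list and 4 on the airway secretory list. Sftpc, which codes for the hydrophobic surfactant protein C (chr14:70520949-70524081, minus strand, GRCm38), had the highest level of any gene in lung when counts were divided by exon length, at 6238 CPM per kilobase. It stood at 4758, 6450 and 8141 CPM in lung, had no read in any liver, and stood at 0.0413, 0.301 and 1.600 CPM in brain. Lung Sftpc was at least 393355-fold higher than in liver, counted against a floor of 3 reads over all livers, and 13414-fold higher than in brain. No read in any liver was found either for Cxcl15, which codes for a chemokine of lung epithelium, for the secretoglobin genes Scgb3a2 and Scgb1a1, for Tmem213, for Retnla, which codes for a resistin-like protein, or for Sec14l3, of a family of lipid-binding proteins. Lung was at least 48452-fold higher than liver in Cxcl15 and at least 22080-fold in Sec14l3, with the same floor. Reg3g, which codes for an antimicrobial lectin, had no read in any of the 16 other libraries, and its lung level of 13.4, 30.1 and 82.4 CPM was at least 2686-fold higher than in liver and at least 4623-fold higher than in brain. Tmem213 and Scgb1a1 each had 1 read over all brains.

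**Figure D1:**
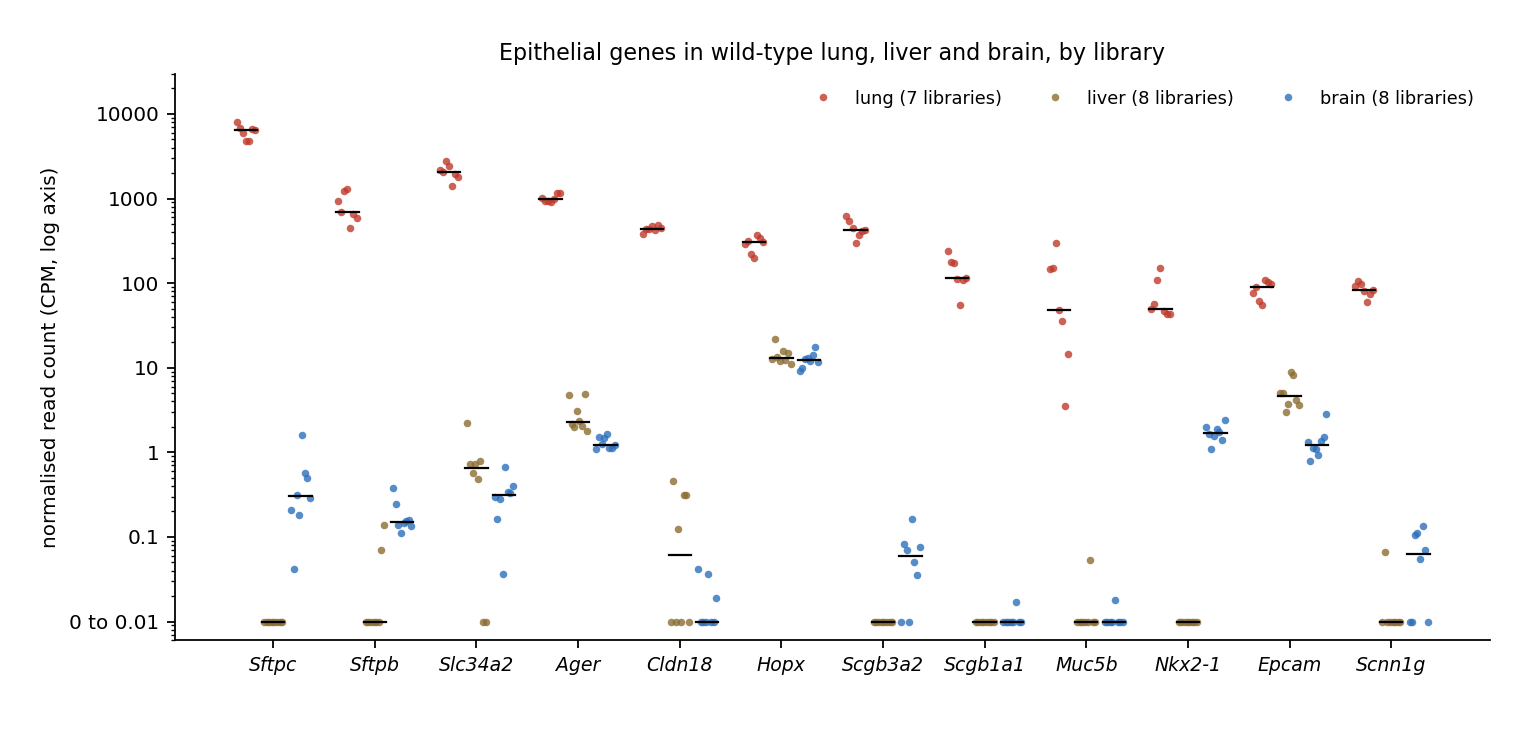
Normalised read counts (CPM, log axis) of 12 epithelial genes in each wild-type library, with lung in red, liver in brown and brain in blue, points for libraries and bars for medians. In all 12 genes every lung lies above every liver and brain, and Muc5b spreads furthest among the lungs, from 3.53 to 295 CPM.

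Genes of alveolar type 2 cells and of surfactant were set apart as higher in 14 of 15 cases tested, where 11.0% of all genes were. The median log2 fold change of the list was 7.66 (3.80 against liver and 11.58 against brain), where the median over all genes tested was -0.05. Sftpb, needed to build the lamellar bodies that store surfactant, stood at 448, 700.4 and 1314 CPM in lung, at most 0.139 CPM in liver and at most 0.376 CPM in brain (log2 fold change 13.18, SE 0.18, adjusted p 1.44e-25, edgeR). Slc34a2, the sodium and phosphate cotransporter of type 2 cells, stood at 1415, 2082 and 2777 CPM in lung and at most 2.22 CPM elsewhere (log2 fold change 12.03, SE 0.28). Lamp3, a membrane protein of lamellar bodies, reached 369, 631 and 672 CPM in lung and at most 0.335 CPM elsewhere (12.16, SE 0.16). Every lung lay above every other library in all 3 genes.

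Other members of the type 2 list were present in the other tissues too. Abca3, which carries lipid into lamellar bodies, was at 449, 686 and 1109 CPM in lung, 136, 151 and 169 CPM in liver and 97.9, 118 and 141 CPM in brain, a log2 fold change of 2.41. Lpcat1, an enzyme that remodels surfactant phosphatidylcholine, differed least of the 14 members set apart (2.24, SE 0.06). Mfsd2a, a transporter of lysophosphatidylcholine that the blood-brain barrier also uses, was the member not set apart. It reached 0.750 CPM in lung and 0.856 CPM in liver, and 21.98, 23.3 and 25.6 CPM in brain, a log2 fold change of -6.48 against brain.

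Of the alveolar type 1 genes, 13 of 14 were set apart, with a median log2 fold change of 5.54. Ager, which codes for the receptor for advanced glycation end products and marks type 1 cells, had the highest level of the list per kilobase (459.8 CPM per kilobase). It stood at 914, 984 and 1164 CPM in lung against at most 4.93 CPM in liver and 1.65 CPM in brain (log2 fold change 9.04, SE 0.14, adjusted p 8.44e-25, edgeR). Cldn18, a tight junction claudin, was at 382, 433 and 489.6 CPM in lung and at most 0.461 CPM elsewhere (13.10, SE 0.20). Aqp5, a water channel, was at 51.6, 69.1 and 78.6 CPM in lung and at most 0.586 CPM elsewhere, 4235-fold (95% counting interval 1449 to 20535) higher than in liver and 154-fold higher than in brain. No lung overlapped another tissue in these 3 genes. Cav1, which forms caveolae and is also high in endothelium, and Akap5, a scaffold of protein kinase A, had log2 fold changes of 5.06 and 5.72. Gprc5a and Hopx, markers of type 1 cells, followed at 10.27 and 4.45. Spock2, a proteoglycan gene, was higher than in liver but lower than in brain, where it reached 306, 339 and 362 CPM against 91.5, 127 and 149 CPM in lung.

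All 9 genes tested of the airway secretory list were set apart as higher, with a median log2 fold change of 8.65, and the remaining member, Bpifa1, had at most 0.400 CPM in lung and was too low to test. Members near absent from liver and brain passed the filter on low counts through their lung level alone, so this count was partly fixed by the filter. Scgb3a2 led the list per kilobase (486 CPM per kilobase), at 296, 428 and 614 CPM in lung. Scgb1a1, the secretoglobin gene of club cells, reached 54.7, 114 and 241 CPM. The lungs differed widely in some of these genes. Muc5b, which codes for a gel-forming mucin of the airway, was at 149, 150.0, 295 and 47.8 CPM in replicates 1 to 4 of the S226A litters and at 35.6, 3.53 and 14.5 CPM in replicates 1 to 3 of the Y130A litters. Scgb3a1, another secretoglobin gene, was at 103, 95.5, 102 and 24.7 CPM and 44.0, 11.7 and 29.4 CPM in the same order. Reg3g was at 63.9, 64.9, 82.4 and 18.46 CPM and 30.1, 13.4 and 23.8 CPM. Replicates 1 to 3 of the S226A litters were above the other 4 lungs in all 3 genes, and replicate 2 of the Y130A litters was the lowest. Cyp2f2, a cytochrome P450 of club cells, was shared with liver, at 73.9, 119.6 and 144 CPM in lung and 17.5, 46.6 and 82.9 CPM in liver, a log2 fold change of 1.08 against liver. Aldh1a7, an aldehyde dehydrogenase gene, had a log2 fold change of 5.02 (SE 0.23).

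The letters CAAGTG, bound by NKX2 factors such as the lung regulator NKX2-1, were looked for on both strands of the 250 bases before each RefSeq gene start (GRCm38.p6). TGTTTAC of FOX factors, GTTGCC of RFX factors and GGAATG of TEAD factors were searched in the same way, and none of the 4 motifs contains another. These letters stood in 10.6% of the 15600 promoters of that table, in 11.5% of the 1314 promoters found for genes set apart as higher, in 4 of 7 promoters found for the secretory list (Scgb3a1, Cyp2f2, Cldn10 and Aldh1a7) and in 1 of 11 for the type 2 list (Sftpa1). They also stood in 4 of 10 promoters of the thymocyte list and 2 of 9 of the hepatocyte list, and in 9.73% of those of all genes tested. TGTTTAC stood in 2.63% of all promoters and 3.12% of those of the genes set apart as higher, and GGAATG in 11.4% and 15.8%. A match describes the letters and is no evidence of binding. The promoters of Sftpa1, a gene of surfactant protein A (chr14:41131538-41131787, plus strand), of Scgb3a1 (chr11:49663345-49663594, plus strand) and of Cyp2f2 (chr7:27119705-27119954, plus strand) are shown 5′ to 3′ because they hold a match, which is in capitals (CACTTG where it lies on the opposite strand).
Sftpa1: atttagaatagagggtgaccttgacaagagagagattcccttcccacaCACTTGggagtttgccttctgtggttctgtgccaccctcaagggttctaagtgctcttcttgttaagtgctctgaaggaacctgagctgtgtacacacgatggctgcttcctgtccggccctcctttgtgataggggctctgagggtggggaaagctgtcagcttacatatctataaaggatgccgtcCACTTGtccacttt
Scgb3a1: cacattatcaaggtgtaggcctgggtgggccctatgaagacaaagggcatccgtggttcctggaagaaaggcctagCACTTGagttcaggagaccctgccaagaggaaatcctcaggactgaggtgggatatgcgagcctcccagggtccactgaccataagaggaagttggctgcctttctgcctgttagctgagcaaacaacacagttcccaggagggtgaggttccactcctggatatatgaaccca
Cyp2f2: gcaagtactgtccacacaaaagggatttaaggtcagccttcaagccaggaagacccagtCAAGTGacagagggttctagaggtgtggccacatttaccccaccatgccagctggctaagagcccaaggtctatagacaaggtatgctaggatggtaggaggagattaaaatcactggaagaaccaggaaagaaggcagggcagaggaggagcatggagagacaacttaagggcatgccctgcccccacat
The levels of Scgb3a1 and Cyp2f2 are given above, and Sftpa1 was at 490.0, 757 and 1030 CPM in lung, at most 1.51 CPM in liver and at most 0.236 CPM in brain.

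No gene of the airway basal list was set apart as higher among the 7 tested. Ngfr, the low-affinity neurotrophin receptor gene, was lower than in both tissues (1.202, 1.503 and 4.30 CPM in lung, log2 fold change -2.31, SE 0.25). Dlk2, a transmembrane protein gene, was higher than in liver and lower than in brain. The count rests on the squamous liver library, which held 42.2 CPM of Krt15, 34.3 CPM of Krt5 and 3.03 CPM of Krt17, keratins of basal cells, and 6.71 CPM of Trp63, their regulator. No other liver exceeded 0.864 CPM in any of these 4 genes. Without that liver, Trp63, Krt15 and Krt17 were set apart as higher, and the log2 fold change of Krt15 against liver went from 3.91 (SE 1.05) to 8.06 (SE 0.65). Krt15 was at 39.1, 84.8, 25.0 and 36.4 CPM in the lungs of the S226A litters and at 114, 52.1 and 80.7 CPM in those of the Y130A litters. Its 3 highest lungs were also the 3 highest in Krt5, Krt4 and Krt13, and the part of squamous tissue in these values was not tested.

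Of 8 neuroendocrine genes, none was set apart, 6 were higher than in liver and 6 were lower than in brain, with a median log2 fold change of -4.75 against brain. Grp and Calca, which code for gastrin-releasing peptide and calcitonin gene-related peptide, were at 1.85, 2.72 and 3.45 CPM and 1.42, 2.14 and 2.63 CPM in lung. Both were higher than in liver, where they reached 0.197 and 0.303 CPM, and neither was called against brain. Syp, a synaptic vesicle gene, was at 1.12, 2.00 and 3.12 CPM in lung and 172, 221 and 249 CPM in brain.

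Transcription factors of lung epithelium were set apart in 12 of 22 cases, with a median log2 fold change of 2.93. Nkx2-1, a regulator that marks lung and thyroid fate, had no read in any liver and was at 1.08, 1.70 and 2.44 CPM in brain. In lung it was at 49.5, 56.8, 108 and 152 CPM in replicates 1 to 4 of the S226A litters and at 46.5, 43.7 and 43.7 CPM in replicates 1 to 3 of the Y130A litters. Replicates 3 and 4 of the S226A litters thus stood above the other 5 lungs. Lung Nkx2-1 was at least 4521-fold higher than in liver and 41.5-fold higher than in brain. Elf5, a factor of distal tip cells, had a log2 fold change of 8.39 (SE 0.47) and Grhl2, a regulator of epithelial junctions, of 6.98 (SE 0.30). Irx1, an Iroquois factor, was 3602-fold (95% counting interval 1233 to 17467) higher than in liver and 5.54-fold higher than in brain. Cebpa, which acts in type 2 cells and in hepatocytes, was lower than in liver and higher than in brain. The squamous liver library was the highest liver in this list, with a mean log2(CPM + 1) of 3.09 where the other livers lay between 2.38 and 2.5996, and without it 12 genes were set apart too. Id2, a factor of distal tip progenitors, had the highest level of the list per kilobase, at 71.2, 102 and 114 CPM, and was not called against either tissue.

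Genes of epithelial adhesion and keratins were higher than in brain in 16 of 16 cases (26.7% of all genes were) and set apart in 12. Krt19, a keratin of simple epithelia, was at 216, 278 and 303 CPM in lung, 4.47, 6.36 and 12.5 CPM in liver and 1.69, 2.15 and 2.93 CPM in brain (log2 fold change 6.11, SE 0.13). Krt7, a relative, and Cldn3, a claudin, had log2 fold changes of 6.85 (SE 0.18) and 4.58 (SE 0.14). Krt8 and Krt18, the keratin pair that hepatocytes also make, were not called against liver, where Krt8 was at 140.2, 183 and 228 CPM beside 229.5, 273 and 290.2 CPM in lung. Rab25, a small GTPase gene of epithelia, Esrp1, an epithelial splicing factor gene, and Cldn4 had log2 fold changes of 6.91, 6.27 and 6.17.

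The fetal lung secretes liquid and turns to absorbing it around birth, and genes of this transport were set apart in 8 of 14 cases. The 3 genes of the epithelial sodium channel were among them. Scnn1a was at 59.2, 79.7 and 222 CPM in lung and at most 6.91 CPM elsewhere. Scnn1b was at 27.2, 33.3 and 38.5 CPM and at most 0.790 CPM elsewhere. Scnn1g was at 59.8, 83.8 and 105 CPM, with 0.0658 CPM in the highest liver and 0.136 CPM in the highest brain. All lungs were above all other libraries in the 3 genes. Slc26a9, a chloride transporter gene of airway epithelium, was at 31.04, 48.3 and 97.5 CPM in lung (log2 fold change 8.07, SE 0.34). The water channel gene Aqp1 was called higher against brain alone. Aqp4 was higher than in liver and lower than in brain, and Aqp3 was lower than in liver and higher than in brain.

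**Figure D2:**
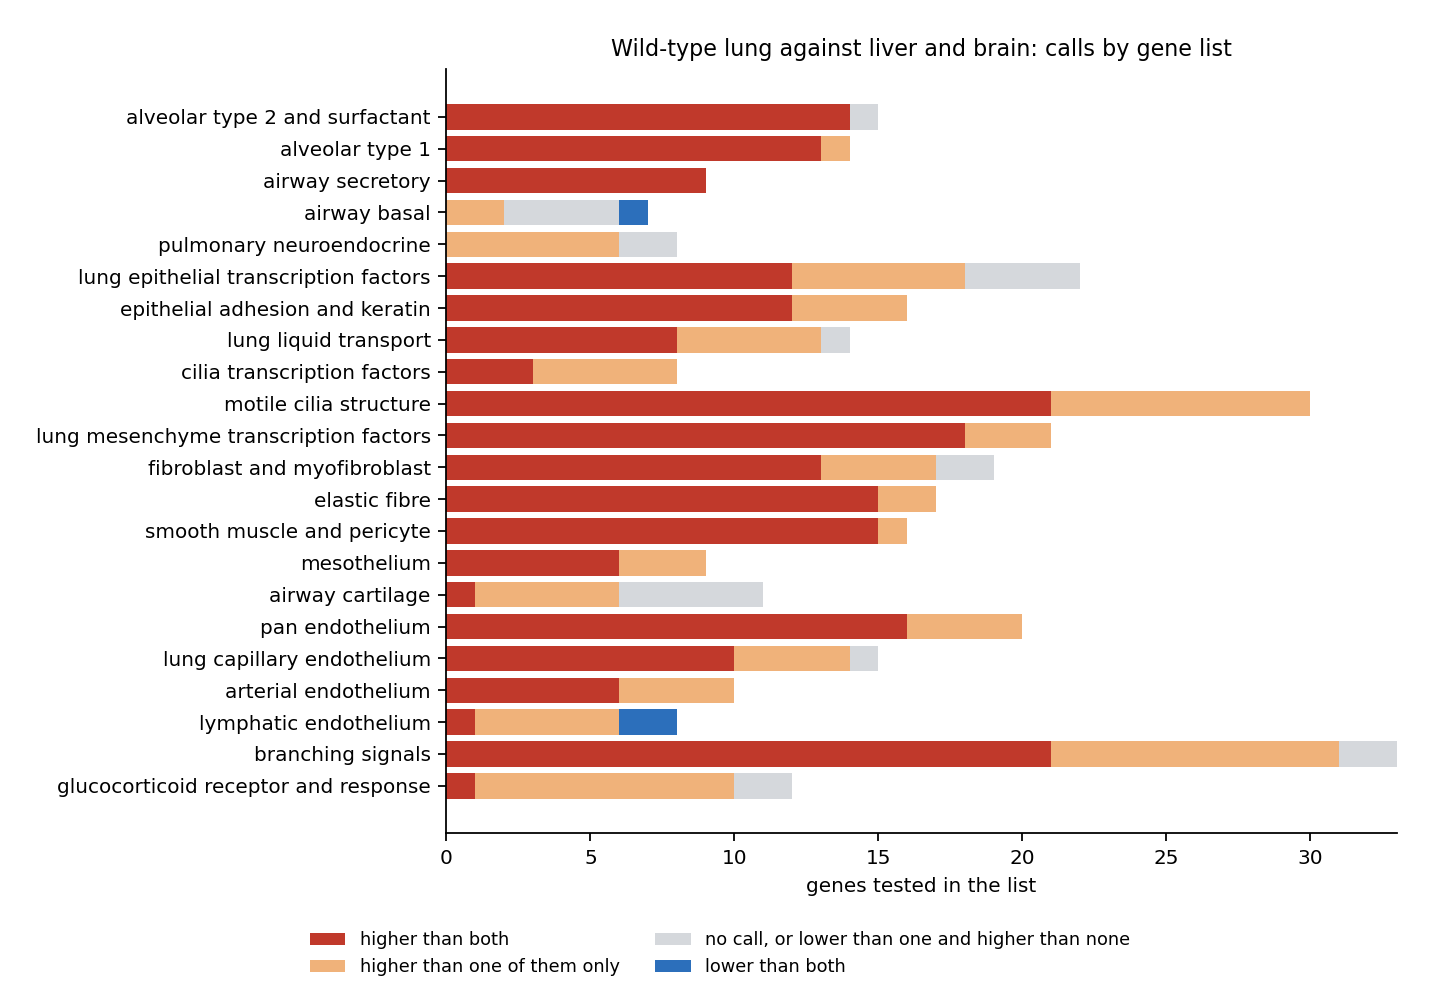
Number of genes tested in each of 22 lists of lung cell types and functions, coloured by how wild-type lung compared with liver and brain. Red bars, genes higher than both, take up 14 of 15 genes of the type 2 list and 16 of 20 of the endothelial list, and none of the basal and neuroendocrine lists.

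Motile cilia beat on the surface of the conducting airways and, in the brain, on the ependyma and choroid plexus. Of 30 structural genes of motile cilia, 28 were higher than in liver (24.8% of all genes were), 23 higher than in brain (26.7%) and 21 set apart (11.0%). The median log2 fold changes were 4.91 against liver and 2.19 against brain. Sntn, which codes for a protein of the ciliary tip, was at 3.11, 4.71 and 5.45 CPM in lung with no read in liver and at most 0.167 CPM in brain, at least 288-fold higher than in liver and 165-fold higher than in brain. Lrrc23, a radial spoke gene, had the highest level of the list per kilobase (38.3 CPM per kilobase), at 39.0, 66.4 and 71.3 CPM in lung, at most 0.522 CPM in liver and 3.86, 4.93 and 6.74 CPM in brain (log2 fold change 6.39, SE 0.24, adjusted p 9.27e-18, edgeR). Dynlrb2, a dynein light chain gene, was at 10.2, 18.9 and 24.5 CPM in lung, at most 0.197 CPM in liver and 1.56, 1.68 and 2.48 CPM in brain, 1151-fold (95% counting interval 394 to 5582) higher than in liver and 9.87-fold higher than in brain. The lungs lay above all other libraries in these 3 genes. Cfap52 had no read in any liver, and was at 10.2, 14.6 and 19.1 CPM in lung and 2.56, 3.33 and 4.18 CPM in brain.

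The difference between lung and brain varied from gene to gene. Dnali1 of the inner dynein arm had a log2 fold change of 3.56 against brain. Rsph1 of the radial spoke head was at 7.80, 18.1 and 21.97 CPM in lung and 1.51, 2.80 and 3.75 CPM in brain and was called. Rsph9 of the same structure was at 6.55, 8.64 and 13.2 CPM in lung and 13.9, 16.3 and 18.8 CPM in brain, and was not called (-0.89). Tppp3, which bundles microtubules, was at 50.1, 58.0 and 69.2 CPM in lung and 24.6, 30.7 and 36.5 CPM in brain and was not called against brain either (0.97). With Rsph9 and Tppp3, the genes higher than in liver and not called against brain were Ccdc39, Ccdc40, Drc1, Spag6l and Stk36. Dnaic2 and Cfap44 were higher than in brain and not called against liver.

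Of the 8 transcription factors of ciliated cells, 3 were set apart (11.0% of all genes were). Foxj1, a main regulator of motile ciliogenesis, was at 47.4, 52.4 and 62.0 CPM in lung, at most 1.79 CPM in liver and 12.5, 13.9 and 17.9 CPM in brain (log2 fold change 4.23, SE 0.19, adjusted p 3.39e-16, edgeR). Mcidas, which codes for multicilin, an inducer of multiciliated cells, was at 3.604, 5.98 and 8.47 CPM in lung with no read in liver, at least 357-fold higher than in liver and 9.70-fold higher than in brain. Ccno, a cyclin-like gene needed for basal bodies, had a log2 fold change of 3.23, SE 0.24. The lungs lay above all other libraries in these 3 genes. Gmnc, a relative of Mcidas, was at 1.55, 2.06 and 2.29 CPM in lung and 0.855, 1.10 and 1.92 CPM in brain and was not called against brain. Rfx3 was higher than in liver, at 46.2, 56.9 and 71.7 CPM in lung, and was not called against brain, at 91.7, 108 and 118 CPM. Myb, which also acts in blood progenitors, and Rfx2 were lower than in liver and higher than in brain.

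RFX factors bind a site that contains GTTGCC, and these letters stood on either strand of 10.2% of all 15600 promoters, 12.1% of the promoters of genes set apart as higher, 9 of 26 promoters found for the structural cilia genes and 3 of 7 for their transcription factors. They also stood in 3 of 10 promoters of the erythroid list and 2 of 7 of the neuron list, and in 10.7% of those of all genes tested. The promoters of Mcidas (chr13:112993618-112993867, plus strand), Dynlrb2 (chr8:116504765-116505014, plus strand) and Lrrc23 (chr6:124779728-124779977, minus strand) are shown 5′ to 3′ over the 250 bases before the RefSeq start, as members that hold a match. The letters are in capitals (GGCAAC where they lie on the opposite strand).
Mcidas: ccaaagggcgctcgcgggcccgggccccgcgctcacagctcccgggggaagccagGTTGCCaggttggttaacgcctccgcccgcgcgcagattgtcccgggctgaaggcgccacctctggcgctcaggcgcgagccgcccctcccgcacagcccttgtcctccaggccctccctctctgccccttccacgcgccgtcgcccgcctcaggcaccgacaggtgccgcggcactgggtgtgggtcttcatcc
Dynlrb2: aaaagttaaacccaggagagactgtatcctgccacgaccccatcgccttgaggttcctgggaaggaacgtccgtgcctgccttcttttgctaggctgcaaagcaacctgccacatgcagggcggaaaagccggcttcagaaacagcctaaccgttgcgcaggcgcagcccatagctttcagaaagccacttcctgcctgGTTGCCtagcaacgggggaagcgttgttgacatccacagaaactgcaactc
Lrrc23: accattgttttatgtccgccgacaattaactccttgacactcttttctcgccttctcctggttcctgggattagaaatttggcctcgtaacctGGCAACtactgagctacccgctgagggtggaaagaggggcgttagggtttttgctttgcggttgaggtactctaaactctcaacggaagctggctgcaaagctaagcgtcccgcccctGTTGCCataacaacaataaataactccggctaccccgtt
The matches lay 195 to 190 bases before the start in Mcidas, 51 to 46 in Dynlrb2, and 157 to 152 and 39 to 34 in Lrrc23.

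**Figure D3:**
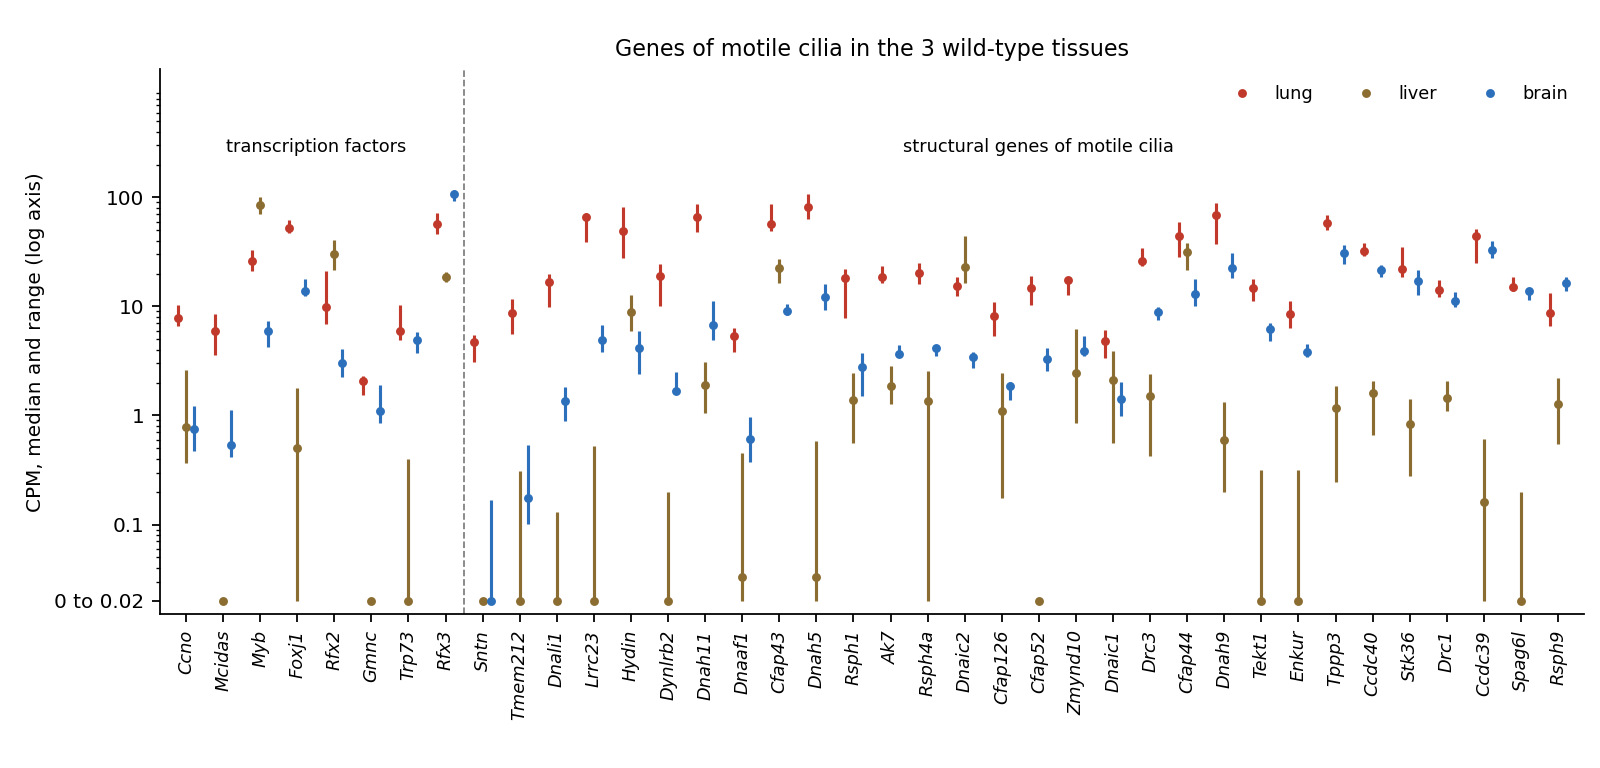
Levels (CPM, log axis) of 8 transcription factors and 30 structural genes of motile cilia, with points for medians and lines for the range over 7 lungs (red), 8 livers (brown) and 8 brains (blue), ordered within each group by the fitted difference between lung and brain. Of the structural genes 28 were called higher than in liver, and in Rsph9 the lowest brain (13.9 CPM) lies above the highest lung (13.2 CPM).

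Transcription factors of lung mesenchyme were set apart in 18 of 21 cases, and all 21 were higher than in liver, with a median log2 fold change of 3.32. Tbx4 and Tbx5, T-box genes of the early lung bud, were at 126, 139 and 159 CPM and 64.4, 82.4 and 111 CPM in lung. Tbx4 reached 0.627 CPM and Tbx5 0.182 CPM elsewhere, with log2 fold changes of 9.70 (SE 0.20) and 10.54 (SE 0.25). Tcf21, which marks fibroblast progenitors, had the highest level per kilobase, at 173, 218 and 236 CPM in lung, at most 6.77 CPM in liver and 0.351 CPM in brain. Every lung lay above every other library in these 3 genes. Foxf1, a mesenchymal target of hedgehog signals, had a log2 fold change of 5.47, Tbx2 of 5.71 and Meox2 of 7.68. Hoxa4, Hoxb5 and Zfpm2 were higher than in liver and not called against brain, and Barx1 was too low to test.

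Genes of fibroblasts and myofibroblasts were set apart in 13 of 19 cases, with a median log2 fold change of 3.19. Mfap4, a microfibril-associated glycoprotein gene, had the highest level per kilobase (390.3 CPM per kilobase), at 616, 750.2 and 866 CPM in lung and at most 9.24 CPM elsewhere (7.27, SE 0.16). The fibrillar collagen genes Col3a1 and Col1a2 were at 2234, 2548 and 3113 CPM and 1207, 1522 and 1767 CPM in lung. Their log2 fold changes were 3.01 and 2.71. Vegfd, a growth factor gene, Scube2, a hedgehog pathway gene, and Limch1, which binds actin, had log2 fold changes of 5.84, 5.62 and 4.86. Lpl, the lipoprotein lipase gene, and Pi16 were lower than in liver, where Lpl was at 705, 878 and 1031 CPM beside 44.9, 82.8 and 95.9 CPM in lung.

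Elastic fibres form in the walls of the sacs, and all 17 of their genes tested were higher than in brain and 15 were set apart, with a median log2 fold change of 2.75. Eln, which codes for tropoelastin, was at 2002, 2665 and 3137 CPM in lung, 30.1, 37.5 and 65.0 CPM in liver and 25.4, 29.2 and 40.0 CPM in brain (log2 fold change 6.22, SE 0.11, adjusted p 9.28e-24, edgeR). The fibrillin gene Fbn1 was at 871, 1066 and 1190 CPM in lung (3.51, SE 0.09). Lox, an enzyme that crosslinks elastin, was at 311, 349 and 408 CPM (4.91, SE 0.10). Every lung lay above every other library in these 3 genes. Ltbp2, a fibrillin relative, and Fbln5, which guides elastin to microfibrils, had log2 fold changes of 6.14 and 4.04. Emilin1 and Loxl2 were higher than in brain and not called against liver.

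Smooth muscle and pericyte genes were set apart in 15 of 16 cases, with a median log2 fold change of 3.67. Acta2, the actin of smooth muscle and myofibroblasts, was at 157, 279 and 391 CPM in lung, 24.3, 36.3 and 125 CPM in liver and 5.51, 7.24 and 12.4 CPM in brain (3.74, SE 0.22). Its highest liver was the squamous liver library, as it was for Tagln, Cnn1 and Myocd, a cofactor that switches on smooth muscle genes. Without that library 15 genes were set apart too, and the log2 fold change of Cnn1 against liver went from 3.12 (SE 0.78) to 5.38 (SE 0.43). Higd1b, a mitochondrial protein gene used as a pericyte marker, had no read in any liver, and was at 32.7, 47.7 and 54.0 CPM in lung and 2.91, 3.70 and 4.93 CPM in brain. Pdgfrb, the receptor that recruits pericytes, had a log2 fold change of 2.62. Rgs5, a pericyte marker of brain vessels, was higher than in liver and lower than in brain (26.0, 35.4 and 50.3 CPM in lung, 79.3, 87.7 and 109 CPM in brain).

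Of 9 mesothelial genes, all were higher than in brain and 6 were set apart. Msln, the mesothelin gene, was at 263, 297 and 344 CPM in lung and 7.89, 10.6 and 15.3 CPM in liver, which has a mesothelium too (log2 fold change 6.71, SE 0.10). The uroplakin genes Upk1b and Upk3b had log2 fold changes of 4.90 and 4.83. C3, complement component 3, which hepatocytes make, was lower than in liver. Cartilage supports the large airways, and of 11 cartilage genes tested only Hapln1, which codes for a link protein of hyaluronan, was set apart as higher (26.1, 34.6 and 45.3 CPM in lung, log2 fold change 5.99, SE 0.21), where 11.0% of all genes were. Against brain 5 of the cartilage genes were lower (23.3% of all genes were) and 2 higher (26.7%). Against liver 5 were higher (24.8% of all genes) and 1 lower (19.5%). Col2a1, the collagen of cartilage matrix, was at 3.43, 11.8 and 20.95 CPM in lung and was not called against brain, at 14.6, 17.5 and 22.1 CPM.

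Genes common to most endothelium were higher than in brain in 20 of 20 cases (26.7% of all genes were) and set apart in 16 (11.0%). Their median log2 fold change was 2.64. Pecam1, an adhesion molecule of endothelial junctions, was at 447, 556 and 627 CPM in lung, 63.7, 74.4 and 81.2 CPM in liver and 29.0, 32.2 and 38.7 CPM in brain (3.48, SE 0.06, adjusted p 2.68e-24, edgeR). Cdh5, the endothelial cadherin, was at 372, 538 and 739 CPM in lung (3.27, SE 0.09). Emcn, a sialomucin of capillaries and veins, was at 109, 176 and 187 CPM (4.61, SE 0.08). The lungs lay above all other libraries in these 3 genes. Calcrl, a receptor of adrenomedullin, and Sox17, an arterial factor, had log2 fold changes of 4.09 and 4.01. Cldn5, a claudin of endothelial junctions, had a log2 fold change of 3.83 against liver and 1.41 against brain. Flt1, Eng, Mmrn2 and Vwf were higher than in brain and not called against liver.

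Among markers of lung capillaries, 10 of 15 genes tested were set apart (11.0% of all genes were). Car4, a carbonic anhydrase gene of alveolar capillaries, was at 11.3, 22.5 and 28.0 CPM in lung, at most 0.0910 CPM in liver and 2.51, 3.07 and 4.02 CPM in brain, 1342-fold (95% counting interval 459 to 6506) higher than in liver and 6.64-fold higher than in brain. Cd93, a lectin-like receptor of endothelium, was at 434, 498 and 603 CPM in lung (2.93, SE 0.06). Icam1, an adhesion molecule also made by type 1 cells, was at 169, 200.2 and 235 CPM (4.23, SE 0.06). All lungs were above all other libraries in these 3 genes. Fibin, and Gpihbp1, which carries lipoprotein lipase to the capillary lumen, had log2 fold changes of 4.92 and 4.37. Ednrb, an endothelin receptor gene, was higher than in liver and not called against brain, where it was at 93.6, 111 and 128 CPM beside 135, 173 and 227 CPM in lung. Hpgd, which breaks down prostaglandins, was lower than in liver.

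Arterial genes were set apart in 6 of 10 cases (11.0% of all genes were). Among them were the gap junction genes Gja5 (log2 fold change 3.94, SE 0.12) and Gja4 (2.39, SE 0.15), Sox7 (3.08, SE 0.23), the Notch target Hey1 (2.96, SE 0.21) and Fbln2 (1.74, SE 0.10). Efnb2, which marks arterial identity, was higher than in liver and not called against brain. Of 8 lymphatic genes tested, Pdpn, shared with type 1 cells, was set apart as higher (11.0% of all genes were). Prox1 and Reln were set apart as lower (3.92% of all genes). Prox1, the lymphatic regulator, which is also made by hepatocytes and neural progenitors, was at 6.80, 10.1 and 14.2 CPM in lung, 124, 175 and 199 CPM in liver and 32.1, 38.3 and 40.5 CPM in brain. Lyve1, which liver sinusoids make too, was higher than in brain and not called against liver, at 97.5, 131 and 152 CPM in lung and 81.2, 96.6 and 120.5 CPM in liver.

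**Figure D4:**
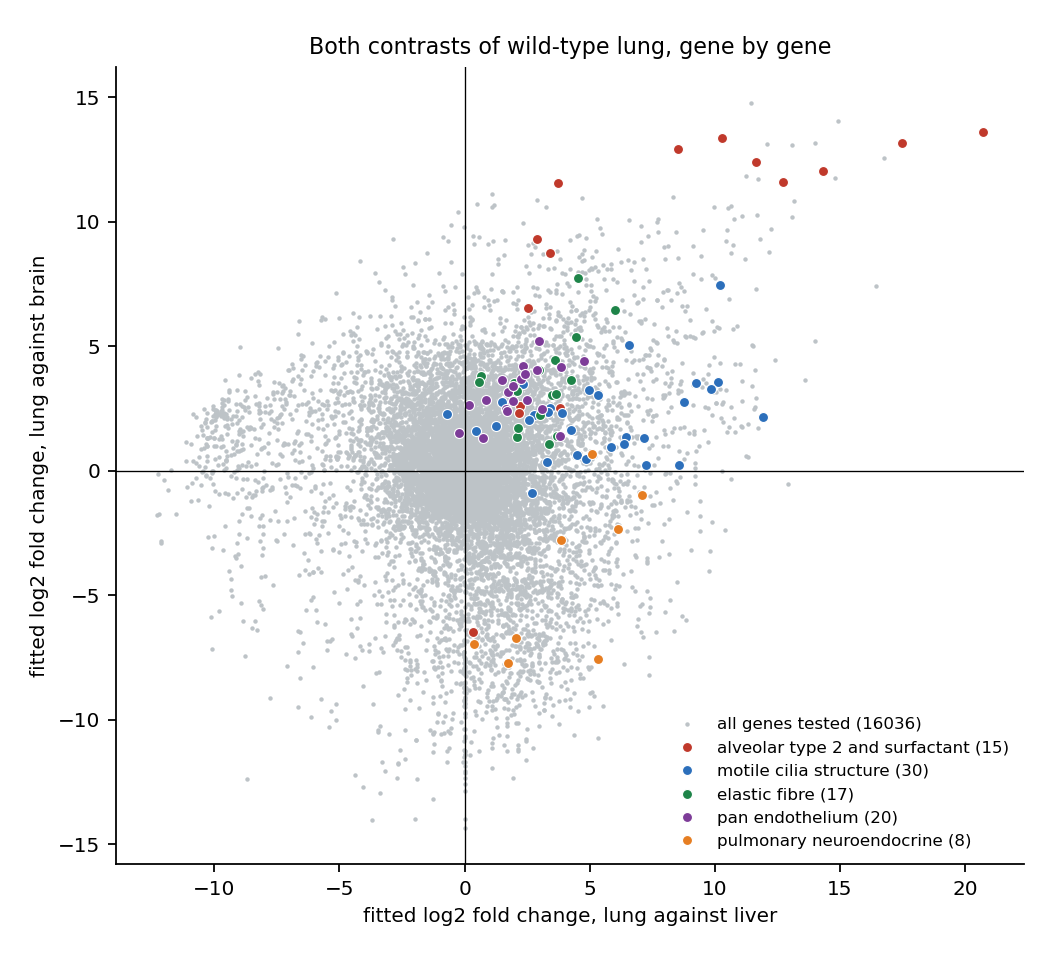
Fitted log2 fold change of lung against liver (x axis) and against brain (y axis) for 16036 genes (grey) and 5 lists (colours). Genes of alveolar type 2 cells, elastic fibres and endothelium lie mostly above and to the right of 0, with 14 of 15, 15 of 17 and 16 of 20 genes set apart, and 6 of 8 neuroendocrine genes are lower than in brain.

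Of 33 signalling genes of branching, 30 were higher than in liver (24.8% of all genes were) and 21 were set apart (11.0%). Against brain 22 were higher (26.7% of all genes) and 6 lower (23.3%). Shh, a ligand secreted by the epithelium, was at 21.5, 25.8 and 31.2 CPM in lung, at most 0.123 CPM in liver and 1.49, 1.70 and 2.09 CPM in brain, 1012-fold and 14.7-fold higher in lung. Fgf10 and Fgf7, ligands of the mesenchyme, were at 21.6, 26.8 and 46.6 CPM and 13.3, 22.6 and 27.7 CPM in lung, with log2 fold changes of 5.54 (SE 0.25) and 6.16 (SE 0.32). Fgfr2, the receptor gene for both, was at 438, 497 and 543 CPM in lung, 94.4, 102 and 116 CPM in liver and 54.6, 56.3 and 61.2 CPM in brain (2.70, SE 0.04). The lungs were above all other libraries in all 4 genes. Hhip, a hedgehog-binding inhibitor, was at 251, 326 and 401 CPM (4.85, SE 0.10). Vegfa, a ligand the epithelium makes, and its receptor gene Kdr of endothelium had log2 fold changes of 2.33 (SE 0.06) and 2.07 (SE 0.06). Fgf9, Wnt7b, Rspo2, Nog, Grem1 and Rarb were lower than in brain, and all but Rarb were higher than in liver.

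Glucocorticoids ripen the fetal lung before birth, and of 12 genes of the receptor and its response 1 was set apart (11.0% of all genes were), 10 were higher than in brain (26.7% of all genes) and 2 lower than in liver (19.5% of all genes). Nr3c1, the glucocorticoid receptor gene, was at 254, 319.9 and 363 CPM in lung, 154, 192 and 229 CPM in liver and 30.96, 36.4 and 41.9 CPM in brain, and was not called against liver. Hsd11b1, which regenerates active hormone, was at 100.1, 152 and 159.8 CPM in lung, 138, 151 and 169 CPM in liver and at most 0.943 CPM in brain. Tsc22d3, a leucine zipper gene induced by glucocorticoids, was the member set apart (126, 160.4 and 182 CPM in lung, log2 fold change 1.66, SE 0.07). The response gene Zbtb16 was higher than in brain and not called against liver, and Errfi1 and Lcn2 were lower than in liver. With libraries scaled by their total alone, 6 of the genes were set apart, where 2227 of all 16036 genes were set apart as higher.

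The 10 most negative of the genes set apart as lower in lung, by the fitted difference and among those without overlap, were Gpr12, Ttr, Sertm1, Tac2, Lhx2, Slc6a19, Tmem132e, Gbx2, Mmd2 and Onecut2. Ttr, which codes for a thyroid hormone carrier made by liver and choroid plexus, was at 0.546, 4.67 and 8.68 CPM in lung, 4210, 4833 and 5936 CPM in liver and 534, 587 and 794 CPM in brain. Gpr12, a receptor gene of neurons, Tac2, which codes for neurokinin B, and Slc6a19, a transporter of neutral amino acids, had no read in any lung. Gpr12 was at least 125-fold higher in liver and at least 1585-fold higher in brain than in lung, against a floor of 3 reads over all lungs, and Slc6a19 at least 265-fold and at least 13.6-fold. Lhx2, a homeobox gene of the forebrain, was 571-fold higher in brain than in lung, and Onecut2, a factor of liver and neurons, 594-fold higher in liver.

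Lists named after other tissues were measured too, and whether the cells behind them lay within the lung or beside it was not tested. All 11 cardiac muscle genes tested, of 12, were set apart as higher, with a median log2 fold change of 6.57. Here too, a gene low in liver and brain could be tested only through its lung level. The summed level of the list was 780.3, 648, 1083 and 674 CPM in replicates 1 to 4 of the S226A litters and 1613, 1505 and 1711 CPM in replicates 1 to 3 of the Y130A litters, against at most 15.4 CPM in liver and 15.3 CPM in brain. Myh6, an atrial myosin heavy chain gene, was at 189, 404 and 599 CPM in lung, Myl7, the atrial light chain gene, at 71.1, 115 and 236 CPM and Nppa, which codes for atrial natriuretic peptide, at 8.86, 63.8 and 145 CPM. Myl2, the light chain gene of ventricular muscle, reached at most 2.25 CPM. The lungs of the 2 sets of litters did not overlap in the cardiac sum, and litter, depth and the tissue taken cannot be told apart. Within the S226A litters alone 9 of these genes were set apart, and within the Y130A litters alone 9.

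Skeletal muscle genes were set apart in 8 of 10 cases tested, and the count was 9 in the S226A litters alone and 2 in the Y130A litters alone. Their summed level was 258, 217, 368 and 69.6 CPM in the lungs of the S226A litters and 213, 103 and 134 CPM in those of the Y130A litters. Ckm, the muscle creatine kinase gene, was at 20.5, 43.7 and 61.5 CPM and Myh3, embryonic myosin, at 1.05, 43.8 and 74.2 CPM. The squamous list summed to 30.8, 176, 6.10 and 8.03 CPM and to 191, 72.9 and 161 CPM in the same order. The hepatocyte list ranged from 26.1 to 637 CPM over the lungs, against at least 239787 CPM in every liver. The thyroid and parathyroid list summed to 20.4, 3.28, 4.75 and 2.29 CPM and to 1.99, 2.597 and 2.42 CPM in that order. Its highest lung held 13.2 CPM of Tg, the thyroglobulin gene, and 5.43 CPM of Pth, the parathyroid hormone gene. The neuron list summed to between 34.0 and 58.6 CPM in lung, against at least 7653 CPM in every brain, and the erythroid list to between 2865 and 5776 CPM, against at least 22733 CPM in every liver. Of the leukocyte list Cd74, the invariant chain of antigen presentation (17.4, 22.8 and 26.4 CPM in lung), was set apart as higher among 12 genes, where 9 were lower than in liver (19.5% of all genes were), 1 was higher and 8 were higher than in brain. Of 5 brown fat genes tested, Cox8b, a subunit of cytochrome oxidase, was set apart as higher. These single genes compare with the 11.0% of all genes set apart. None of the 12 hepatocyte, 12 neuron and 12 erythroid genes was set apart as higher, nor any of the 5 of 12 thymocyte, 7 of 12 squamous and 4 of 8 thyroid and parathyroid genes that were high enough to test. Ttr and the thymocyte gene Lck were lower. The part of these tissues in the genes set apart was not tested.

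**Figure D5:**
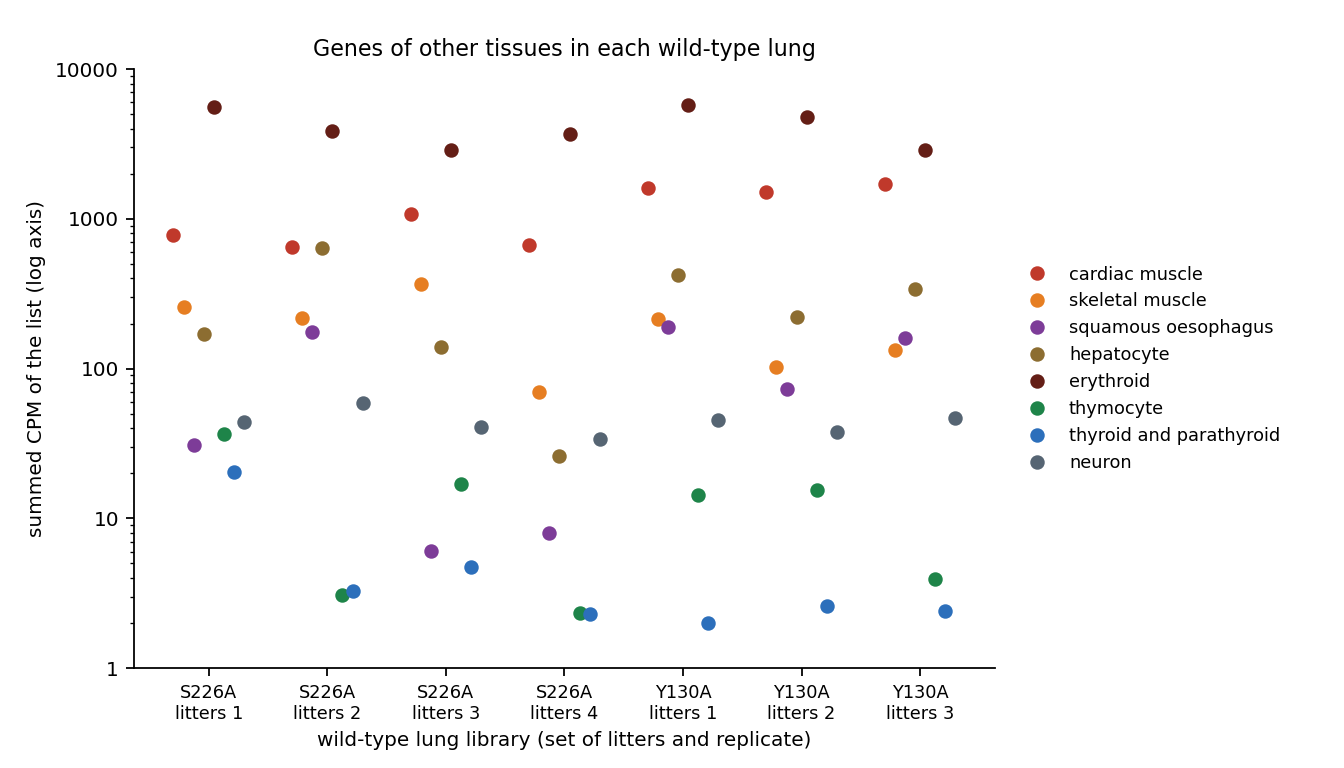
Summed level (CPM, log axis) of lists of genes that mark other tissues, in each of the 7 wild-type lungs. Cardiac muscle genes sum to more in every lung of the Y130A litters than in any lung of the S226A litters, and the squamous list spans 6.10 to 191 CPM.

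The lungs also differed among themselves in genes of the lung. Replicates 3 and 4 of the S226A litters had the highest values of several genes that the lists place in different cell types. Ltbp3, which binds latent TGF-beta, was at 127, 109, 246 and 322 CPM in the S226A litters and 106, 101 and 106 CPM in the Y130A litters. Notch3, a receptor of smooth muscle and pericytes, was at 122, 116, 209 and 261 CPM and 82.0, 73.3 and 71.6 CPM, and Scnn1a at 101, 79.7, 183 and 222 CPM and 59.2, 70.2 and 76.9 CPM. Col1a1, a fibrillar collagen gene, was at 1064, 993, 1563 and 2054 CPM and 752, 522 and 638 CPM. Other lung genes went the other way. Hopx was at 219 and 199 CPM in these replicates against 289 to 374 CPM in the other 5 lungs, and Epcam, an epithelial adhesion gene, at 60.9 and 55.8 CPM against 76.3 to 109 CPM. These genes were picked after their values were seen. The same replicates had the lowest median correlation with the other lungs over all genes, at 0.979 and 0.973, where the other 5 lay between 0.984 and 0.986. For transposable elements, the study named a wild-type lung of the S226A litters as a possible outlier. Its printed label is close to that of replicate 4. Leaving out any 1 of the 23 libraries gave between 1743 and 1803 genes set apart as higher.

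Whether the contrast of lung with the mean of liver and brain depended on the set of litters was tested by the interaction. Of 16036 genes, 6 had a more positive contrast in the S226A litters (0.0374%) and 3 a more negative one (0.0187%). The sign is that of the S226A litters minus the Y130A litters, so a more positive contrast can be a smaller difference. The criteria were an adjusted p below 0.01 (edgeR) and a difference larger than 1 on the log2 scale. At an unadjusted p below 0.05 there were 2282. With the embryo as a block, which pairs the tissues of 1 animal, edgeR called 0 genes in either direction, with 1576 at an unadjusted p below 0.05, and DESeq2 without the block called 38 and 34. The 4 largest were Gm10800 (-5.11, SE 0.77), Gm10801 (-4.59, SE 0.69), Gm21738 (-4.52, SE 0.71) and Apol8 (3.71, SE 0.60). These are predicted genes apart from Apol8, and how reads were assigned to the predicted genes was not tested. Gm10800 was at 1.15 to 23.1 CPM in the lungs of the S226A litters and 795 to 2058 CPM in those of the Y130A litters, at 479 to 2762 CPM and 409 to 707 CPM in their livers, and at 49.8 to 118 CPM and 1179 to 6217 CPM in their brains. The sets of litters did not overlap in lung or brain. Apol8 was near the floor in lung, at 0.234 to 0.944 CPM in the S226A litters and 0.0 to 0.0801 CPM in the Y130A litters. In their livers Apol8 was at 52.9 to 74.9 CPM and 55.1 to 63.3 CPM. No gene of the lung lists was among the 9. Without replicate 2 of the lungs of the S226A litters, 45 genes had a more positive and 8 a more negative contrast, so that this count rests on single libraries.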

How the data were processed

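RNA-seq libraries of total RNA from flash-frozen E18.5 lung, liver and brain were analysed, of which the 23 wild-type libraries are described here. The authors deposited whole-number counts of reads per gene, not normalised. Per the labels' processing notes and the study's methods, reads were trimmed with Trim Galore 0.6.5 and aligned with STAR 2.6.0b to GRCm38.p6. 1 wild-type lung of the Y130A litters, which the study removed as an outlier, is not analysed here. The wild-type lung of 1 S226A litter came from another embryo than its liver and brain. Genes were named by their Ensembl IDs in the reference annotation, where 20445 of 20456 IDs were found.

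Genes were kept by edgeR's filter (minimum count 10, minimum total 15), scaled by TMM and tested with the quasi-likelihood fit of edgeR 4.0.16 in R 4.3.3, with terms for tissue and for the set of litters and adjustment by the Benjamini-Hochberg method. The filter took tissues as groups, so a gene could pass through its level in a single tissue. The SE of a log2 fold change came from the F statistic, as its absolute value over the root of F. The interaction was fitted with 1 term for each tissue and set of litters, without a criterion on the SE. A level of zero over a group was replaced by a floor of 3 counts over that group, and such floors and the 95% intervals of ratios cover counting error only. Levels were compared between genes only per kilobase of exon. On simulated counts for 16036 genes, 91 of 100 genes raised and 89 of 100 lowered by 4-fold in lung were recovered, and 39 of 50 (78%) with a lung contrast that differed 4-fold between the sets of litters.

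The members and the 32 lists were chosen with earlier results of these data known. The genes named are the 15 highest and 10 lowest of those set apart without overlap by the fitted difference, including genes with a group at 0, up to 4 leading members of each list by difference and by level, members that go against their list, and the 4 largest interactions. A few members, such as Abca3, Lpcat1 and Cyp2f2, were added for their function after their values were seen. Tissues of 1 embryo shared an animal, and their residuals correlated at 0.0578 to 0.299 (median 0.134, 20 pairs), so fits with the embryo and with the litter as a block were run as alternatives. The other alternatives were DESeq2 1.42.0, other scaling, filters and thresholds, all 47 libraries, subsets and leaving out each library. No 2 replicates agreed within counting noise. 1 member of the lists is not reported here.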

Additional observations from a re-analysis of the deposited data

Results flagged for a closer look

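For each list and tissue, the score of a library was its mean log2(CPM + 1), and the highest and lowest library was set against the rest with Dixon's ratio. In 96 such groups of values, of which chance flags about 1 in 20, a library stood apart in 7. The lung of replicate 1 of the Y130A litters was the lowest in alveolar type 2 genes, with a score of 8.02 where the other lungs lay between 8.44 and 8.73, and in alveolar type 1 genes, with 7.92 against 8.14 to 8.23. The liver of replicate 2 of the S226A litters, the squamous liver library, was the highest liver in airway basal genes (3.09 against 0.547 to 0.809), in lung epithelial transcription factors (3.09 against 2.38 to 2.5996) and in squamous genes (4.81 against 0.234 to 0.685). The liver of replicate 1 of the Y130A litters, which is from another embryo than the lung of replicate 1, was the highest in genes common to endothelium (5.09 against 4.81 to 4.93). The lung of replicate 1 of the S226A litters was the highest in thyroid and parathyroid genes (1.05 against 0.272 to 0.370).

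The contrast of lung with liver and brain differed between the sets of litters by the interaction term for Gm10800, by -5.11 on the log2 scale (S226A litters minus Y130A litters), Gm10801 (-4.59), Gm21738 (-4.52) and Apol8 (3.71, with at most 0.944 CPM in any lung). The adjusted p was 0.00682 for the first pair and 0.00951 for the others (edgeR). No gene passed with the embryo as a block.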

How the results depend on the processing

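Under 37 alternatives the counts of genes called against the mean, against liver, against brain and against both stayed within 1.5 times, apart from the following. At an adjusted p below 0.05 alone, lung was higher in 6007 and lower in 6388 genes against the mean, 6764 and 6082 against liver, 6708 and 6828 against brain, 3125 and 2484 were set apart, and the interaction gave 45 and 17. With libraries scaled by their total alone, 6031 genes were higher than in liver. The interaction, at 6 more positive and 3 more negative contrasts, gave 38 and 34 with DESeq2 and 11 and 1 with all 47 libraries. It gave 3 more positive with RLE size factors, and 1 more positive with library size only. Its pairing fits, with the embryo or the litter as a replicate block, gave 0 and 0 (edgeR, where 1576 and 1872 genes passed 0.05 before adjustment).

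With each library left out in turn, there were 3347 to 3421 higher and 2343 to 2460 lower against the mean, 3912 to 4028 and 3090 to 3177 against liver, 4235 to 4316 and 3682 to 3787 against brain, 1743 to 1803 and 615 to 643 set apart, and 0 to 45 and 0 to 8 for the interaction. The embryo block kept 1658 of the 1766 genes set apart as higher (93.9%) among 1670, and the litter block 1712 (96.9%) among 1727. The S226A litters alone shared 1526 (86.4%) and the Y130A litters alone 1547 (87.6%). Mutant S226A embryos, with tissues compared in the same way, shared 1498 (84.8%) and Y130A embryos 1545 (87.5%). DESeq2 shared 1700 of its 1746.

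The mean level of a list in lung, as log2(CPM + 1), moved by more than the spread between lungs in 11 of 32 lists with a pseudocount of 0.1 and in 18 with the median over the list's genes.

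Of the 192 genes named, 4 changed sign in the contrast with the mean. Grem1 went to 0.66 in S226A embryos, 0.0812 in the S226A litters only, 0.22 with library size only, 0.20 and 0.26 without the liver of replicate 2 of the S226A litters or of replicate 4 of the Y130A litters, and 0.0390 without the lung of replicate 2 of the Y130A litters, and its values with 1 library left out ran from -0.36 to 0.26. Nog went to 1.09 in S226A embryos, 0.0171 in Y130A embryos, 0.14 in the Y130A litters only and 0.10 without the liver of replicate 4 of the S226A litters, where leaving out 1 library gave -0.89 to 0.10. Rfx2 and Zfpm2 went to -0.37 and -0.14 in Y130A embryos, and to -0.0689 and -0.0253 in the Y130A litters only. The cause was not tested. Depth limits the genes with few reads in liver or brain, whose folds are bounds or carry wide counting intervals.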
